A study of Bos taurus with 18 samples.

Results

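Bovine embryos differ in the day on which they first form a blastocoel, the fluid cavity of the blastocyst. The comparison described here set embryos whose cavity formed late, on day 8, against embryos whose cavity formed early, on day 6. The members were chosen by title alone: the 3 arrays of day8 and the 3 of day6, which make 6 of the 18 arrays of the study. Both groups were collected when the cavity formed, so they differ both in the day of formation and in embryo age. The study had 6 groups of 3 arrays, and 2 of the others serve as reference points below. The group day7 was collected at cavity formation on day 7. The group day6+2 formed its cavity on day 6 and then stayed in culture for 2 extra days, so it had the embryo age of day8.

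All embryos were Bos taurus and were produced in vitro from slaughterhouse oocytes, matured within their cumulus cells and inseminated with frozen semen of 1 bull. They were freed of cumulus cells and grown at 39 °C in groups of 25 with a co-culture of VERO cells, a monkey kidney line. The labels call the arrays of a group biological replicates, but do not give the number of embryos behind an array or whether the replicates came from separate cultures. The p-values therefore measure the spread between these samples, part of which may be technical. RNA was amplified before hybridisation to a 1-colour bovine array.

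When the cavity forms, the outer cells of the embryo become the trophectoderm, a sealed epithelium that pumps ions and water inwards and later makes the placenta. The inner cells divide into epiblast, which makes the embryo proper and depends on factors such as POU5F1 and NANOG, and hypoblast, which lines the cavity and is marked by factors such as GATA4. In ruminants the trophoblast announces the pregnancy to the mother by secreting interferon tau. In these bulk samples, fewer cells of a type and less RNA per cell cannot be told apart.

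Levels below are log2 intensities after normalisation, and differences are day8 minus day6 in log2 units. Each ± gives the fitted standard error, from n = 3 arrays a group. A feature, that is a gene (represented by its brightest probe) or a probe without a gene symbol, passed when its adjusted p in limma was under 0.05. The 6 arrays had a median raw signal of 200 to 263 intensity units, and 71.6% to 80.3% of their probes lay above the negative control spots. Correlations over all features ran from 0.974 to 0.978 within day6, from 0.970 to 0.981 within day8 and from 0.953 to 0.976 between the groups. No slide held both groups: slide 1 and slide 4 carried day6, and slide 2 and slide 5 carried day8. Precision is limited by having 3 arrays a group.

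Of 34336 features tested, 509 passed, or 1.48%. There were 327 higher in day8 (0.952%), 206 of them genes, and 182 lower (0.530%), 97 of them genes. The median difference over all features was -0.02. The differences that passed ran from 0.68 to 3.43 upwards, with a median of 1.31, and from -0.67 to -3.44 downwards, with a median of -1.03. The 3 arrays of one group did not overlap the 3 of the other in 507 of the 509, and they did not overlap in 6021 of all features (17.5%). The authors' deposited value table, put through the same fit, gave 534 features, 325 higher and 209 lower. When each array was centred on its median in place of quantile normalisation, 362 were higher and 64 lower, so the share of higher ones went from 64.2% to 85.0%.

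The count past the adjusted threshold rested on single arrays. It was 42 without day6 replicate 2, 84 without day8 replicate 1, 94 without day8 replicate 2 and 156 without day6 replicate 1, but 440 without day6 replicate 3 and 707 without day8 replicate 3. At an unadjusted p under 0.05 (limma) these fits gave 3708 to 4802 features, against 4459 with all arrays. With the slide as a fixed block, where the difference is estimated through the groups that share slides, only PLAU passed, beside 3088 features at an unadjusted p under 0.05. Under each of the 6 fits that left out 1 of these arrays, 34 features passed, 27 higher and 7 lower. Of these, 20 were genes: PLAU, LOC783399, STAP2, QSOX1, NUCB2, TUBB6, SLC23A1, ANKRD1, ADAMTSL5, ABHD14B, LOC511937, PI4K2B, ASAM, LTBR, RIT1, BEX4, DPEP1, ABCB1 and STK38L were higher, and DUOXA2 was lower.

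**Figure D1:**
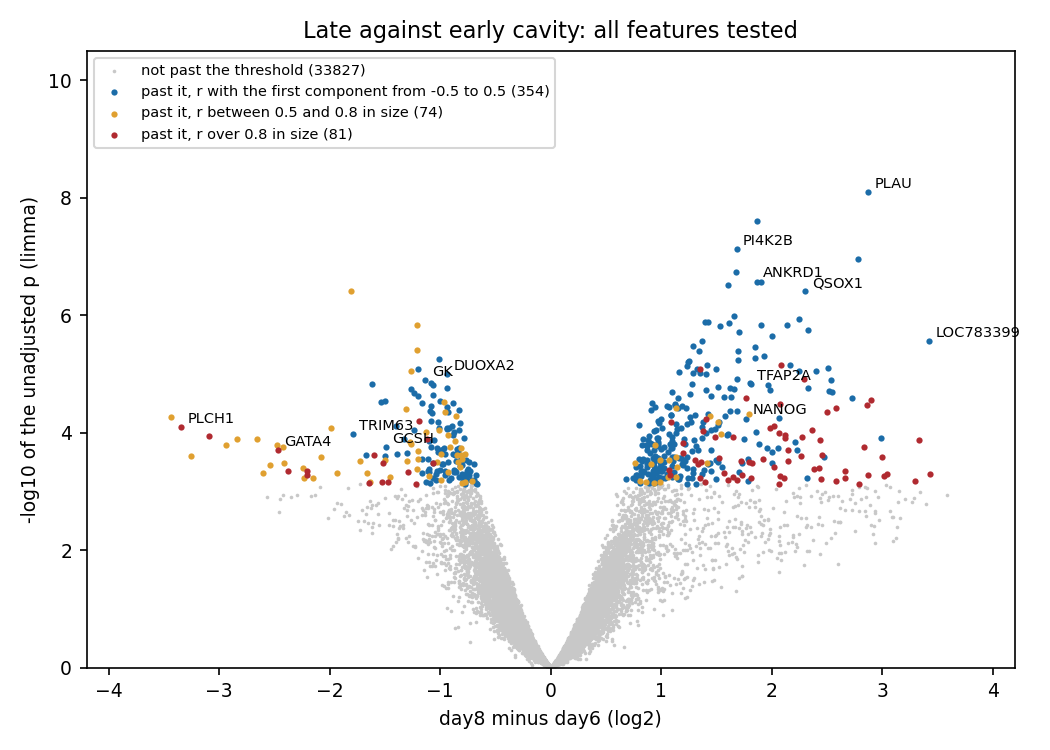
The difference between day8 and day6 (log2, x axis) is plotted against -log10 of the unadjusted p in limma (y axis) for each feature tested, coloured by whether it passed and by its correlation with the first principal component of the 18 arrays. PLAU has the smallest p, and of the 509 features that passed 354 have a correlation between -0.5 and 0.5.

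The first principal component of the 18 arrays held 19.1% of the variance and set the 3 day8 arrays apart, together with day6+1 replicate 1 and day7 replicate 1, 2 arrays whose own groups did not share the pattern. It followed 372 features with a correlation r over 0.8 with it, and 78 with r under -0.8. The mean level of the 372 was 8.52, 8.60 and 9.51 on the day6 arrays and 10.84, 10.79 and 10.35 on the day8 arrays. It was 10.88 on day6+1 replicate 1 and 11.60 on day7 replicate 1. In this co-varying set 65 of 372 features passed as higher (17.5%) and 16 of the 78 passed as lower (20.5%), against 428 of the 33886 other features (1.26%). The 18 arrays behind the component include the day8 and day6 arrays compared here, and both sets were picked by r with it. The direction of these calls, and shares above 1.26%, therefore follow in part from that choice.

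Other probes of the co-varying genes did not share their pattern. The 97 other probes of 64 genes of the set had a median difference of 0.07. The probes through which those genes belong to the set, picked by r, had 1.95. Of the 97 other probes 0 passed, beside 59 of the 5615 other probes of genes outside the set and its opposite. ARSI, a sulfatase, shows the pattern: it measured 7.26, 7.64 and 8.37 on the day6 arrays and 11.31, 11.44 and 10.80 on the day8 arrays. The groups lay far apart, with a difference of 3.43 ± 0.84 (adjusted p = 0.0418) and r = 0.97, while the arrays of day6+2 stayed near day6 at a mean of 7.43. The standard deviation of ARSI was 0.57 in day6 and 0.34 in day8, but 2.46 in day7, which also enters the standard error. ROBO2, a receptor for the guidance cue SLIT, had a difference of 3.29 ± 0.83 (adjusted p = 0.0469), and its other probe one of 0.30. With the deposited values neither ARSI nor ROBO2 passed (adjusted p = 0.053 and 0.055), and each passed in 1 of the 6 fits without 1 array. These genes are reported with their r, and what made the arrays share the pattern was not tested. Unless r is given, each gene named below lies between -0.5 and 0.5.

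**Figure D2:**
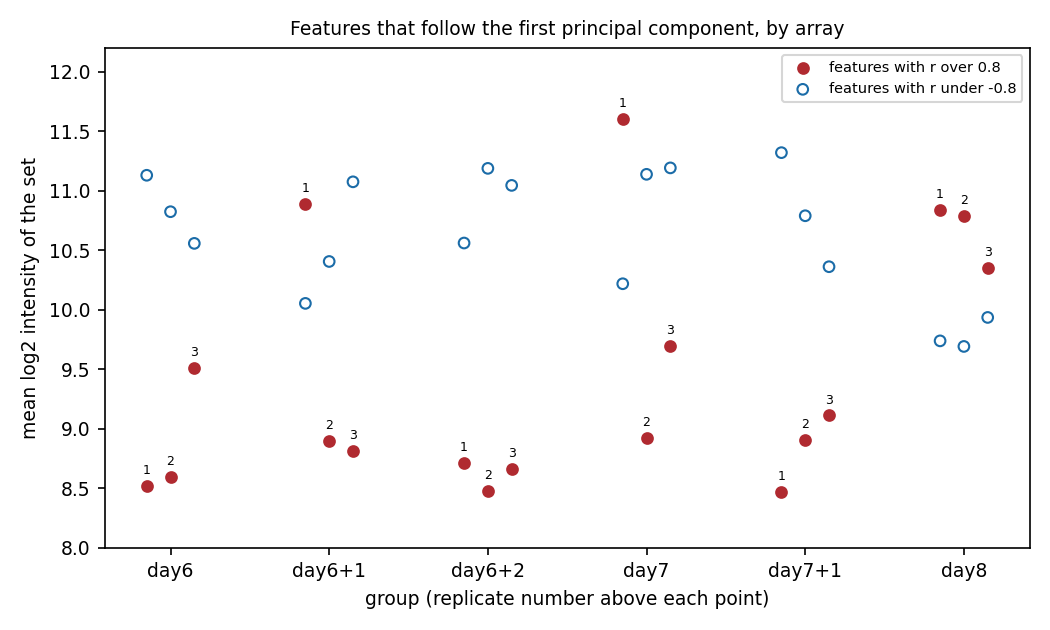
Mean log2 intensity (y axis) of the 372 features with r over 0.8 (filled) and of the 78 with r under -0.8 (open) on each of the 18 arrays, by group (x axis), with the replicate number above the filled points. The 3 day8 arrays lie between 10.35 and 10.84 in the filled set, day6+1 replicate 1 is at 10.88 and day7 replicate 1 at 11.60, above the others of their groups.

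PLAU had the smallest p of all features. This gene, the urokinase that activates plasminogen and so breaks down matrix, measured 12.41, 11.26 and 11.49 on the day6 arrays and 14.84, 14.83 and 14.11 on the day8 arrays. All day8 arrays lay above all day6 arrays, by 1.69 at the closest, and the difference was 2.87 ± 0.31 (adjusted p = 0.000276), a 7.33-fold change. It was 3.33 with the slide as a fixed block (adjusted p = 0.048). PLAU was the 1 of 34 genes for matrix, integrins and the plasminogen system to rise (2.94%, near the 1.41% over all genes), and 0 fell. MUC1, a mucin of the epithelial cell surface, measured 8.70, 7.21 and 8.20 on the day6 arrays and 11.66, 10.82 and 9.81 on the day8 arrays. The lowest day8 array was replicate 3, still above each day6 array, with a difference of 2.73 ± 0.51 (adjusted p = 0.0106).

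Among genes of steroid synthesis and pregnancy signals, CYP11A1, HSD3B1 and IFNT passed as higher, while STAR, which carries cholesterol into mitochondria, and CYP19A1, the aromatase, did not pass, at 0.42 ± 0.24 (adjusted p = 0.495) and -0.66 ± 0.19 (adjusted p = 0.0869). CYP11A1, which makes pregnenolone from cholesterol in the first step of steroid synthesis, measured 8.48, 7.22 and 8.91 on the day6 arrays and 11.62, 10.64 and 9.98 on the day8 arrays. The groups did not overlap, and the difference was 2.54 ± 0.45 (adjusted p = 0.00786). HSD3B1, the enzyme that turns pregnenolone into progesterone, measured 9.53, 8.16 and 9.10 on the day6 arrays and 11.97, 11.05 and 10.53 on the day8 arrays, again with no overlap and with a difference of 2.25 ± 0.39 (adjusted p = 0.00658). IFNT, the interferon tau signal, measured 12.12, 11.29 and 11.79 on the day6 arrays and 14.82, 14.51 and 12.87 on the day8 arrays. Replicate 3 was the lowest of day8 and lay nearest to day6, and the difference was 2.33 ± 0.42 (adjusted p = 0.00891).

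TKDP1, a trophoblast Kunitz-domain protein of ruminants, measured 10.03, 9.93 and 10.08 on the day6 arrays and 12.78, 13.38 and 11.30 on the day8 arrays. The day6 arrays lay within 0.14 of each other while those of day8 spread over 2.08, and the difference of 2.47 ± 0.56 (adjusted p = 0.0316) passed in only 1 of the 6 fits without 1 array. PTGS2, which makes prostaglandins, differed by 1.78 ± 0.41 (adjusted p = 0.0322), but its 2 other probes, at 0.40 and 1.43, did not pass, and neither did the mean of its probes (adjusted p = 0.083). Of the 23 genes tested in the list of trophoblast secreted proteins and steroid enzymes, 5 rose (21.7%), 0 fell and 18 did not pass. Over all genes 1.41% rose and 0.666% fell. The list's median difference was 0.25 against -0.02 over all features. This list and the others used here were chosen with earlier results of these data known. List shares above those over all genes may follow in part from that choice. The pregnancy-associated glycoprotein PAG2 differed by 1.89 ± 0.57 (adjusted p = 0.0984). PAG11, of the same family, was not above the negative controls on any day6 array and was at least 1.92-fold higher in day8, with an adjusted p of 0.333. IFNT, TKDP1 and the PAG genes belong to families of near-identical copies, so a probe may read more than 1 of them.

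The largest rise of a gene outside the co-varying set was that of LOC783399, a symbol as the array gives it, with 11.01, 10.43 and 9.91 on the day6 arrays and 15.04, 13.58 and 12.998 on the day8 arrays. The day8 arrays were all higher and more spread than those of day6, and the difference was 3.42 ± 0.54 (adjusted p = 0.004), a 10.7-fold change. LOC513329 rose by 2.99 ± 0.64 (adjusted p = 0.0221) and passed in 2 of the 6 fits without 1 array. PAGE4, a cancer/testis family member, measured 11.84, 9.93 and 11.32 on the day6 arrays and 14.09, 13.48 and 13.06 on the day8 arrays, with no overlap and a difference of 2.51 ± 0.46 (adjusted p = 0.0093). APP, the amyloid precursor protein, rose by 2.54 ± 0.47 (adjusted p = 0.00945), with r = 0.46. STAP2, a signalling adaptor, rose by 2.33 ± 0.36 (adjusted p = 0.00303), but its 3 other probes differed by 0.10 to 0.59 and none passed. HEBP2, a haem-binding protein, rose by 2.40 ± 0.41 (adjusted p = 0.00658), and neither of its other probes passed, at -0.09 and 0.24.

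**Figure D3:**
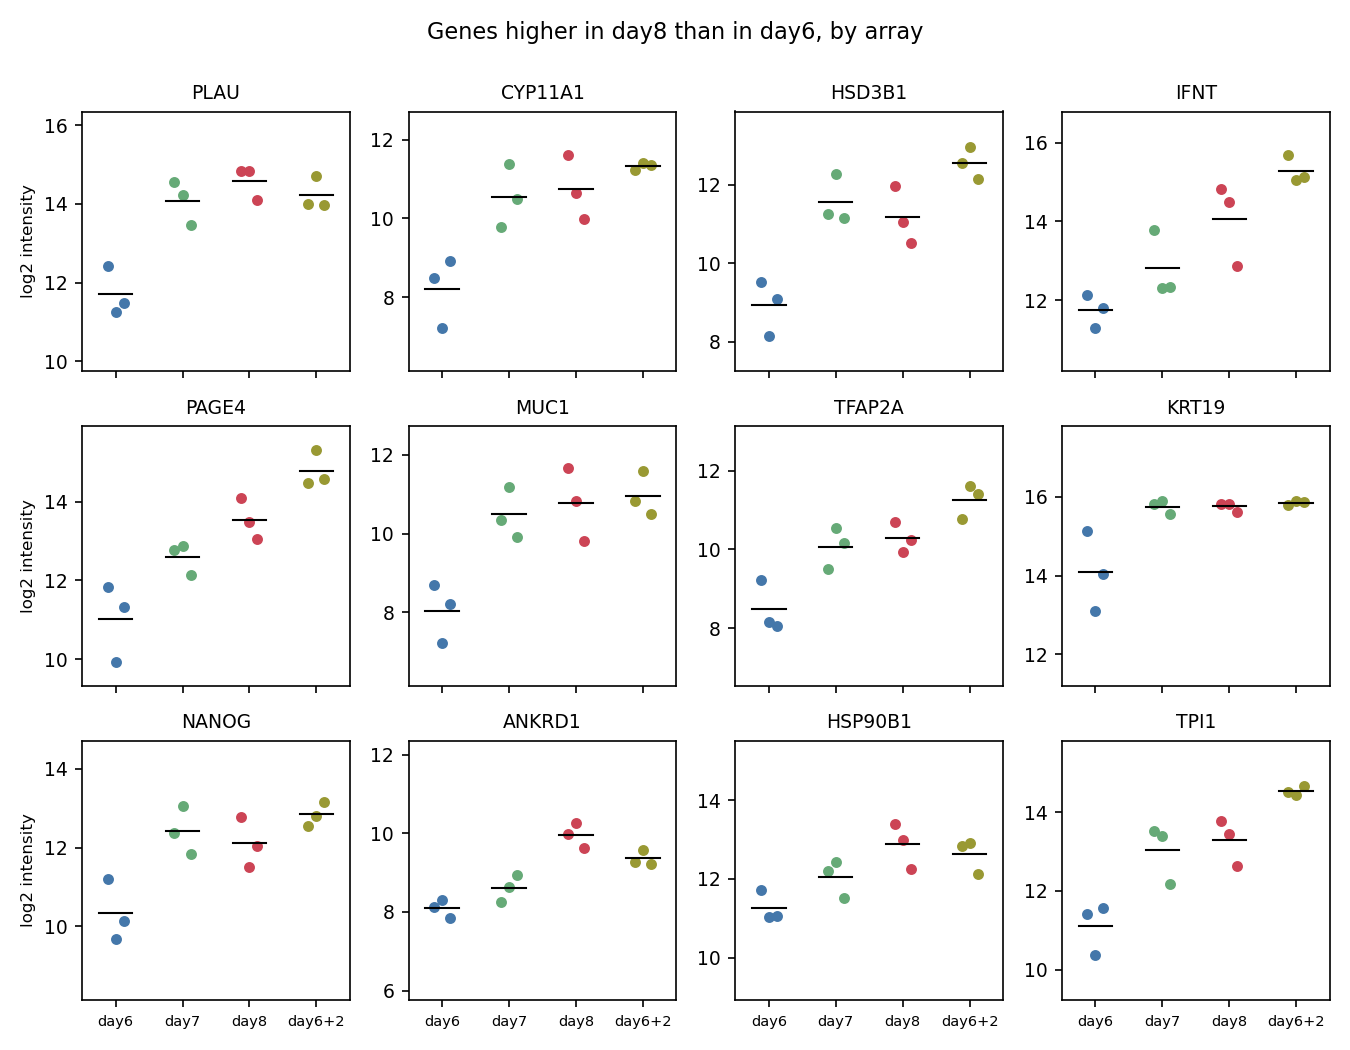
Log2 intensity (y axis) of 12 genes that were higher in day8, on each array of day6, day7, day8 and day6+2 (x axis); points are arrays, bars are group means, and all panels span the same range of log2 units. In each panel the 3 day8 arrays lie above the 3 day6 arrays, as for PLAU with 14.11 or more against 12.41 or less.

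Most factors that set the trophectoderm fate did not pass. CDX2, a homeobox factor of the trophectoderm, measured 7.37, 7.26 and 7.81 on the day6 arrays and 8.01, 7.92 and 7.82 on the day8 arrays, near the dim end of the scale. Its difference of 0.44 ± 0.21 (adjusted p = 0.359) did not pass. GATA3, GATA2, TFAP2C and KRT18 did not pass either, at 0.19, 0.12, 0.24 (r = 0.53) and 0.40. KRT8 was at the scanner's limit on 2 of the day8 arrays, so its difference of 0.02 carries little information. These markers lay above the negative controls on all 6 arrays.

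TFAP2A, a transcription factor of trophoblast and other epithelia, measured 9.22, 8.15 and 8.06 on the day6 arrays and 10.69, 9.94 and 10.24 on the day8 arrays. The groups did not overlap and the difference was 1.81 ± 0.32 (adjusted p = 0.00842), though neither of its other probes passed, at 0.08 and 0.40. KRT19, a keratin of simple epithelia, measured 15.14, 13.10 and 14.05 on the day6 arrays and 15.83, 15.82 and 15.62 on the day8 arrays. The day8 arrays sat together near the top of the scale while day6 spread over 2.05, and the difference was 1.66 ± 0.30 (adjusted p = 0.00891). SFN, the 14-3-3 sigma protein of epithelia, rose by 1.13 ± 0.24 (adjusted p = 0.0199), and ARID3A, a factor needed for trophectoderm in mouse embryos, by 0.94 ± 0.24 (adjusted p = 0.0492). The mean of the probes of ARID3A did not pass (adjusted p = 0.11). In the trophectoderm list 4 of 29 genes rose (13.8%, against 1.41% of all genes) and 0 fell, with a median of 0.20.

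The seal and pump of the cavity did not move one way. Of 30 genes for junctions and for ion and water transport, 2 rose, 2 fell and 26 did not pass, with a median of 0.11. That is 6.67% each way, against 1.41% of all genes higher and 0.666% lower. The desmosome parts DSP and DSC2 rose by 0.89 ± 0.21 (adjusted p = 0.0338) and 1.34 ± 0.30 (adjusted p = 0.027), the other probe of DSC2 differing by 0.11 without passing. CLDN10, a tight junction claudin, measured 9.62, 11.12 and 10.32 on the day6 arrays and 8.18, 9.39 and 8.97 on the day8 arrays, lower on every day8 array, with a difference of -1.50 ± 0.34 (adjusted p = 0.0306). F11R, the junctional adhesion molecule A, measured 14.14, 14.23 and 14.28 on the day6 arrays and 13.38, 13.68 and 13.51 on the day8 arrays, with no overlap and a difference of -0.69 ± 0.16 (adjusted p = 0.0338). It did not pass when arrays were centred on the median (adjusted p = 0.18) and passed in 0 of the 6 fits without 1 array. The sodium pump subunit ATP1B1 and the junction scaffold TJP1 differed by -0.04 and 0.25 and did not pass. AQP3, a water channel, differed by 1.64 ± 0.57 (adjusted p = 0.165), but with r = 0.92, and its other probe by -0.46.

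ANKRD1, a target of the Hippo pathway effector YAP, measured 8.12, 8.30 and 7.84 on the day6 arrays and 9.98, 10.27 and 9.61 on the day8 arrays. The arrays of each group lay close together and 1.31 or more apart from the other group, and the difference was 1.87 ± 0.25 (adjusted p = 0.0013). It was the 1 gene of 37 for polarity and actin cytoskeleton to pass, or 2.7%, near the share over all genes.

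Among inner cell factors, POU5F1 measured 12.69, 12.75 and 12.63 on the day6 arrays and 12.31, 12.50 and 12.92 on the day8 arrays. The groups overlapped, and the difference was -0.11 ± 0.26 (adjusted p = 0.935). NANOG, its partner in the epiblast, measured 11.21, 9.67 and 10.13 on the day6 arrays and 12.79, 11.49 and 12.03 on the day8 arrays. All day8 arrays were higher, the lowest of them by 0.29 over the highest day6 array, and the difference was 1.77 ± 0.35 (adjusted p = 0.0154). SOX2 was dim and differed by -0.23 ± 0.21 (adjusted p = 0.757).

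Other factors of early pluripotent cells had lower means in day8 without passing. KLF4 measured 13.75, 13.66 and 13.40 on the day6 arrays and 12.75, 12.89 and 12.52 on the day8 arrays. The groups did not overlap, with a difference of -0.89 ± 0.27 (adjusted p = 0.105). SPIC, an ETS-family factor, differed by -0.93 ± 0.24 (adjusted p = 0.0574), and ARGFX, a homeobox factor of cleavage embryos, by -1.17 ± 0.34 (adjusted p = 0.0863), with overlapping groups. SPIC passed with the deposited table (adjusted p = 0.048). In the epiblast and pluripotency list 1 of 28 genes rose (3.57%, against 1.41% of all genes) and 0 fell. A negative difference was seen for 18 and a positive one for 10, where 49.1% of all genes had a positive one. The list's median was -0.14, but -0.04 with arrays centred on the median and -0.02 with the slide as a fixed block.

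GATA4, the hypoblast factor, measured 12.63, 11.76 and 11.64 on the day6 arrays and 9.49, 9.30 and 9.85 on the day8 arrays. It was lower on all day8 arrays by 2.47 ± 0.55 (adjusted p = 0.027), but with r = -0.81 it belonged to the features that follow the first component, and it passed in 2 of the 6 fits without 1 array. Among the other hypoblast markers PDGFRA, SOX17 and HNF4A differed by -0.39, -0.36 and 0.33, and none passed. GATA6 was not analysed here. APOA1, a lipid carrier made by hypoblast and yolk sac, measured 8.63, 8.08 and 8.46 on the day6 arrays and 11.25, 9.16 and 10.01 on the day8 arrays. Day8 was higher throughout, with a difference of 1.75 ± 0.37 (adjusted p = 0.0221), and its other probe passed at 1.40. In the hypoblast list 1 of 26 genes rose and 1 fell, with a median of -0.10. Counts of 1 are too small to set apart from the share over all genes.

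The genes that fold and check secreted proteins in the endoplasmic reticulum had the highest median of the 35 lists, 0.45, and 26 of 30 had a positive difference, against 49.1% of all genes. Only 4 passed, all of them higher, or 13.3% against 1.41% of all genes. HSP90B1, the chaperone GRP94, measured 11.71, 11.03 and 11.05 on the day6 arrays and 13.40, 13.001 and 12.26 on the day8 arrays. Each day8 array was higher, and the difference was 1.63 ± 0.30 (adjusted p = 0.0105), while its other probe differed by 0.39 and did not pass. HSPA5, the chaperone BiP, measured 12.64, 11.44 and 12.14 on the day6 arrays and 14.08, 13.84 and 12.84 on the day8 arrays. Day8 replicate 3 lay only 0.20 above the highest day6 array, and the difference was 1.52 ± 0.31 (adjusted p = 0.0174).

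SEL1L and EDEM1, which send misfolded proteins for degradation, rose by 1.40 ± 0.26 (adjusted p = 0.00923) and 0.87 ± 0.19 (adjusted p = 0.0249). Their other probes did not pass, at 0.21 and 0.76 for SEL1L and 0.27 and 0.74 for EDEM1, and the mean of the EDEM1 probes did not pass either (adjusted p = 0.056). With arrays centred on the median the list's median was 0.60. Genes with a mean level over 11 had a median of -0.05 as normalised here and 0.12 when centred. QSOX1, an oxidase that puts disulfide bonds into secreted proteins and was picked after its values were seen, measured 9.07, 8.33 and 8.48 on the day6 arrays and 11.16, 11.18 and 10.47 on the day8 arrays. The groups were 1.39 or more apart, with a difference of 2.30 ± 0.32 (adjusted p = 0.00134).

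Annexins, proteins that bind membranes in the presence of calcium, were the next group. ANXA1 measured 12.58, 12.19 and 12.52 on the day6 arrays and 14.02, 14.01 and 13.48 on the day8 arrays. Day8 lay above day6 on every array, with a difference of 1.41 ± 0.24 (adjusted p = 0.00662). ANXA3 and ANXA4 rose by 1.63 ± 0.32 (adjusted p = 0.013) and 1.40 ± 0.29 (adjusted p = 0.0199), though no other probe of either passed. They were the 3 of 28 genes for calbindin, S100 proteins and annexins to rise (10.7%, against 1.41% of all genes), 0 fell, and the median was 0.29. S100A10, the partner of annexin A2, differed by 0.74 ± 0.20 (adjusted p = 0.0612) and passed with the deposited table (adjusted p = 0.037).

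Some enzymes of sugar metabolism rose. TPI1, the triosephosphate isomerase of glycolysis, measured 11.40, 10.38 and 11.57 on the day6 arrays and 13.78, 13.44 and 12.64 on the day8 arrays. The groups did not overlap, and the difference was 2.17 ± 0.37 (adjusted p = 0.00642). ENO1, the enolase of the same pathway, rose by 1.18 ± 0.27 (adjusted p = 0.0317), with its other probe at 0.27 and not passing, and PFKFB3, which sets the level of a glycolysis activator, by 1.55 ± 0.37 (adjusted p = 0.036). In the list for glucose uptake and glycolysis 3 of 27 genes rose (11.1%, against 1.41% of all genes) and 0 fell. But the list's median was 0.01: the hexokinase HK1, for example, differed by -0.79 ± 0.22 (adjusted p = 0.0697).

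Of 69 subunits of the respiratory chain and ATP synthase, 0 rose and 3 fell, and 3 had a positive difference. The share that fell was 4.35%, against 0.666% of all genes and 1.64% of genes with a mean level over 11. The median was -0.35, the lowest of the 35 lists as normalised here. With the slide as a fixed block it was -0.18, above the -0.21 of the mitosis list and the -0.20 of the list for DNA methylation and imprinted genes. NDUFA11, of complex I, measured 12.40, 12.84 and 12.70 on the day6 arrays and 11.40, 11.74 and 11.97 on the day8 arrays. The groups did not overlap, and it fell by 0.94 ± 0.19 (adjusted p = 0.0186). COX8A, of complex IV, measured 14.93, 14.86 and 14.92 on the day6 arrays and 13.85, 14.14 and 14.30 on the day8 arrays. The day6 arrays lay within 0.07 of each other and above each day8 array, and the fall was 0.81 ± 0.19 (adjusted p = 0.0334).

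UQCRQ, of complex III, fell by 0.74 ± 0.18 (adjusted p = 0.042), but passed in 0 of the 6 fits without 1 array. None of these 3 passed when arrays were centred on the median, where the list's median was -0.21 beside 0.12 for genes with a mean level over 11. In the fit to the deposited values, 6 of the 69 fell.

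**Figure D4:**
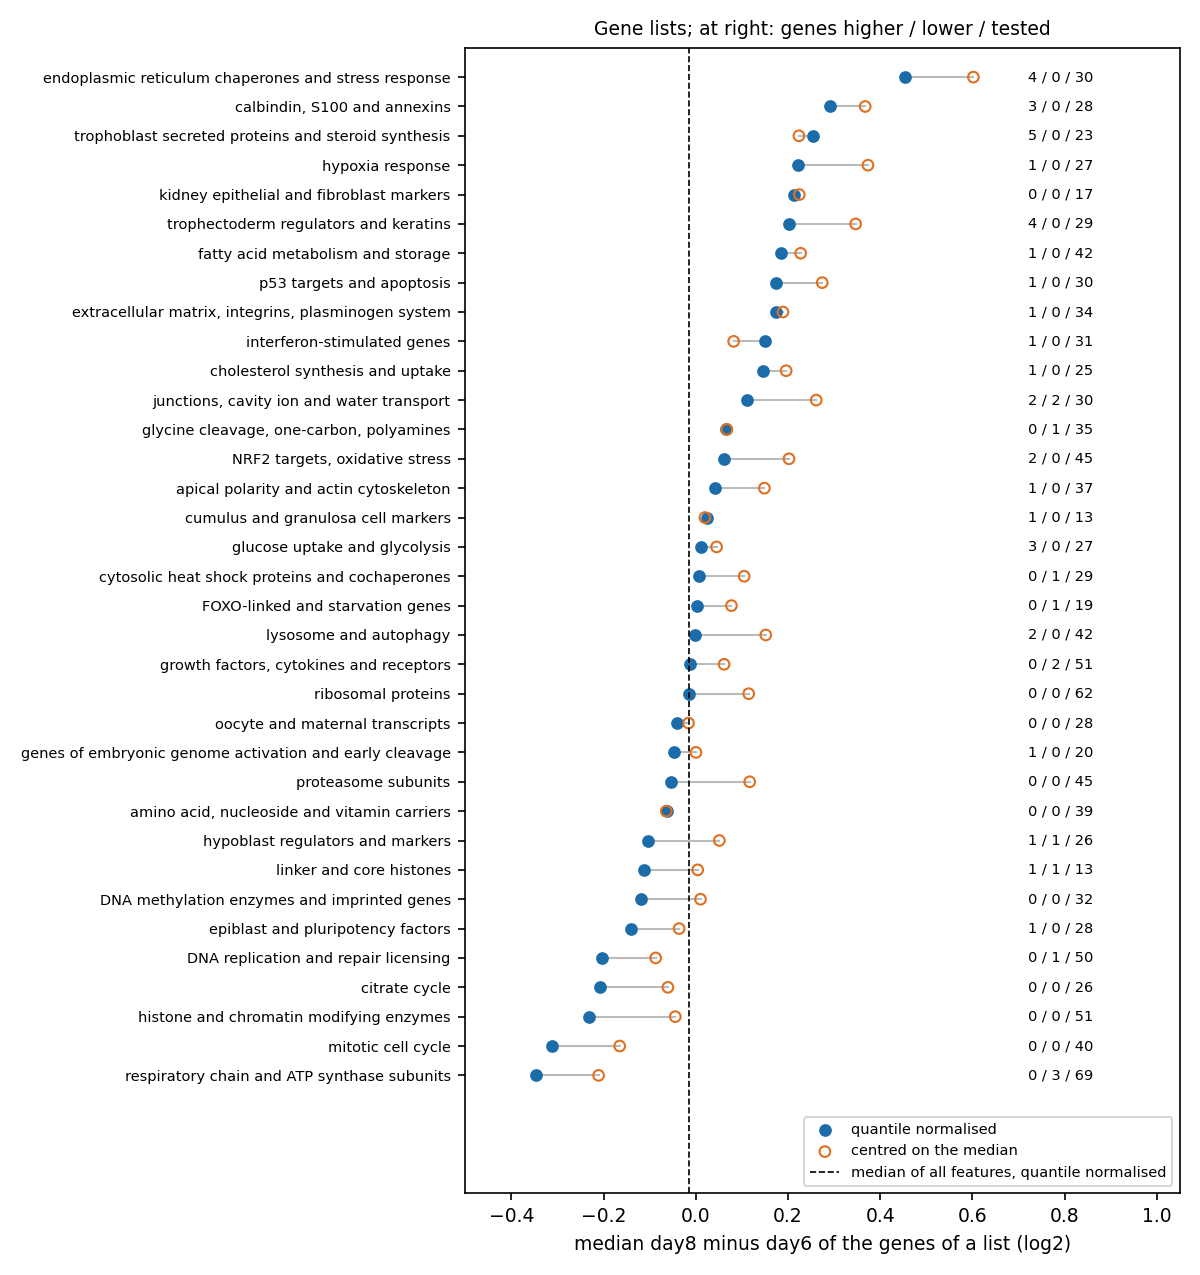
Median difference between day8 and day6 (log2, x axis) of the genes of each of the 35 lists (y axis), as quantile normalised (filled) and with arrays centred on the median (open); the dashed line is the median of all features and the figures at right give genes higher, lower and tested. The median runs from -0.35 for the respiratory chain to 0.45 for the endoplasmic reticulum list.

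Lists for cell division had negative medians, and their counts of genes past the threshold were near the share over all genes. In the mitosis list 0 of 40 passed and the median was -0.31, with 8 positive. Of 50 genes for DNA replication 0 rose and 1 fell, with a median of -0.20. ORC1L, a subunit of the complex that marks replication origins, measured 11.44, 11.65 and 11.41 on the day6 arrays and 10.71, 10.54 and 10.74 on the day8 arrays. The groups did not overlap, and the fall was 0.84 ± 0.19 (adjusted p = 0.0273), which did not pass with arrays centred on the median (adjusted p = 0.15). Chromatin modifiers had a median of -0.23 with 0 of 51 passing. Centring took these 3 medians to -0.17, -0.09 and -0.04.

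HIST1H2BN, a core histone, measured 13.22, 12.46 and 12.53 on the day6 arrays and 11.27, 11.44 and 11.51 on the day8 arrays. It fell by 1.33 ± 0.28 (adjusted p = 0.0221), but did not pass when centred (adjusted p = 0.061). H2AFY, the variant macroH2A, rose by 0.89 ± 0.19 (adjusted p = 0.0236) on its brightest probe, while its other probe differed by -0.27 and the mean of its probes did not pass (adjusted p = 0.54). Since arrays of this kind read amplified RNA, the levels of histones, whose messages mostly lack a poly(A) tail, depend on that step as well, and its part was not tested.

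Among genes for oxidative stress, 2 of 45 rose (4.44%, against 1.41% of all genes) and 0 fell. HMOX1, which breaks down haem, measured 7.91, 7.53 and 9.35 on the day6 arrays and 10.37, 10.90 and 9.71 on the day8 arrays. Day6 replicate 3 lay well above the other day6 arrays and 0.35 below the lowest of day8, and the difference was 2.06 ± 0.41 (adjusted p = 0.015). FTH1, the ferritin heavy chain that stores iron, rose by 0.68 ± 0.17 (adjusted p = 0.0447), but passed in 0 of the 6 fits without 1 array. TXN2, the thioredoxin of mitochondria, differed by -0.65 ± 0.20 (adjusted p = 0.1) on its brightest probe, and 4 of its 5 other probes passed as lower.

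The largest falls outside the co-varying limit of 0.8 were mostly genes just inside it. LOC613677, ARPP21, DHODH, MIR296, ARRB2, HAX1, IGJ, HOXB2 and MEOX2 fell, with differences from -2.94 to -1.93, all with r from -0.80 to -0.71. ARPP21, a phosphoprotein known from brain, measured 12.46, 11.68 and 11.12 on the day6 arrays and 8.64, 8.54 and 9.56 on the day8 arrays. The day8 arrays lay far below, by 2.84 ± 0.61 (adjusted p = 0.0221), while its 2 other probes differed by -0.10 and -0.01. MEOX2 was not above the negative controls in day8 and was at least 3.65-fold lower on its brightest probe, but it passed in 0 of the 6 fits without 1 array. Its 2 other probes differed by 0.003 and 0.23, and the mean of its probes did not pass (adjusted p = 0.2). With the deposited values MEOX2, DHODH and IGJ did not pass (adjusted p = 0.061, 0.054 and 0.065).

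PLCH1, a phospholipase with r = -0.81, measured 12.67, 11.92 and 11.55 on the day6 arrays and 8.54, 8.35 and 9.23 on the day8 arrays. It fell by 3.34 ± 0.69 (adjusted p = 0.0183), and like GATA4 and ARPP21 its means in day7 and day6+2 lay close to that of day6, at 12.002 and 12.01 against 12.05. The day7 mean hides 1 array: day7 replicate 1, which shares the first component's pattern, was at 10.64 for PLCH1, 10.68 for ARPP21 and 11.22 for GATA4, below each day6 and day6+2 array. Just inside the limit of -0.8 stood MIR296 and just outside it GATA4. Of the 182 features that fell, 55 had r between -0.8 and -0.5 and 16 below -0.8.

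TRIM63, a ubiquitin ligase known from muscle wasting, had the largest fall of a gene with r between -0.5 and 0.5 among those named by rule. It measured 12.72, 13.25 and 12.90 on the day6 arrays and 10.60, 11.002 and 11.90 on the day8 arrays. Day8 replicate 3 lay nearest to day6, and the fall was 1.79 ± 0.38 (adjusted p = 0.0205). GCSH, the carrier protein of the glycine cleavage system, measured 14.22, 14.71 and 14.04 on the day6 arrays and 12.01, 13.16 and 13.32 on the day8 arrays. It was lower on each day8 array, most of all on replicate 1, and fell by 1.49 ± 0.33 (adjusted p = 0.0259); its 2 other probes differed by -1.44 and -1.25 without passing. GLDC, the decarboxylase of the same system, differed by -1.40 ± 0.47 (adjusted p = 0.147).

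KIT, the receptor of stem cell factor, measured 9.78, 9.48 and 10.18 on the day6 arrays and 8.80, 8.88 and 8.75 on the day8 arrays. The day8 arrays lay close together below those of day6, and the fall was 1.00 ± 0.24 (adjusted p = 0.0394). PDGFB, a growth factor, fell by 0.98 ± 0.23 (adjusted p = 0.0339). These were the 2 of 51 growth factors, cytokines and receptors to pass, so 3.92% fell, against 0.666% of all genes. Neither passed with arrays centred on the median (adjusted p = 0.12 and 0.078). KIT passed in 0 of the 6 fits without 1 array. STIP1, a cochaperone of HSP70 and HSP90, fell by 0.78 ± 0.20 (adjusted p = 0.0485), and did not pass when centred (adjusted p = 0.19).

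Further genes that fell away from the first component were chosen after their values were seen. DUOXA2, which matures a peroxide-making oxidase, measured 9.19, 8.93 and 8.82 on the day6 arrays and 8.05, 7.97 and 8.09 on the day8 arrays. The arrays of each group lay within 0.37 of each other, and the fall was 0.94 ± 0.16 (adjusted p = 0.00669). GK, glycerol kinase, measured 11.43, 11.64 and 11.13 on the day6 arrays and 10.33, 10.05 and 10.42 on the day8 arrays. No day8 array reached day6, and it fell by 1.13 ± 0.20 (adjusted p = 0.00788), though its other probe differed by 0.12. RUVBL2, an ATPase of chromatin remodelling complexes, fell by 0.94 ± 0.17 (adjusted p = 0.00891), and SERPINA5, an inhibitor of serine proteases that include urokinase, by 1.26 ± 0.23 (adjusted p = 0.00891).

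**Figure D5:**
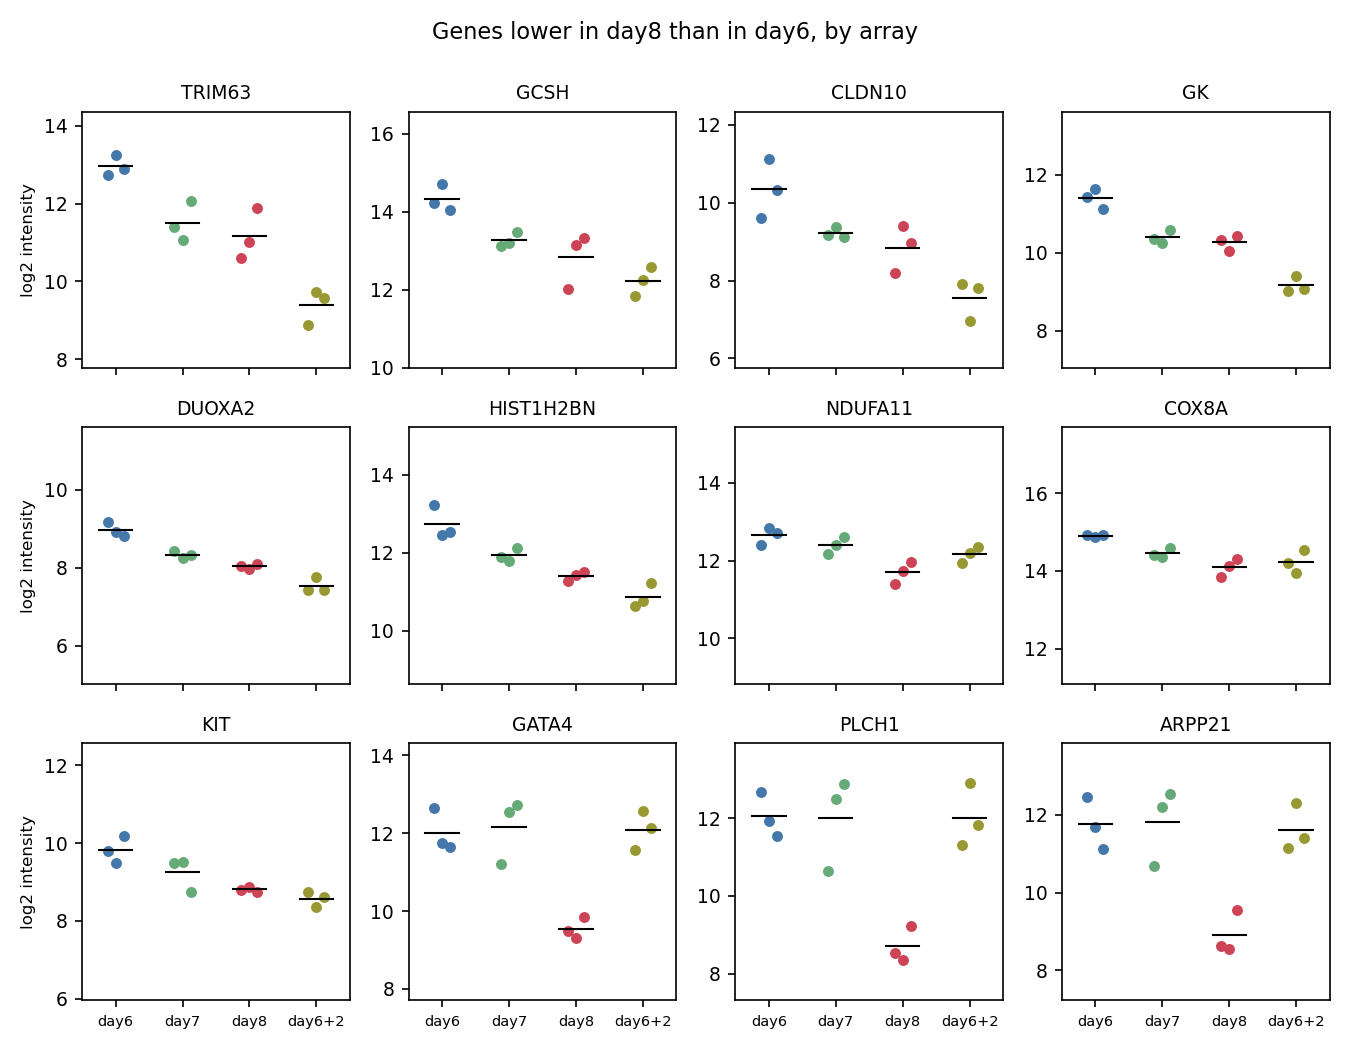
Log2 intensity (y axis) of 12 genes that were lower in day8, on each array of day6, day7, day8 and day6+2 (x axis); points are arrays, bars are group means, and all panels span the same range of log2 units. GATA4, PLCH1 and ARPP21 are lowest on the day8 arrays and next lowest on day7 replicate 1, while TRIM63 and GK are lower still in day6+2.

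Further genes that rose, also chosen after their values were seen, included membrane and surface proteins. PI4K2B, a kinase of phosphatidylinositol, measured 9.95, 9.24 and 9.84 on the day6 arrays and 11.57, 11.55 and 10.96 on the day8 arrays. The groups were 1.01 or more apart, with a difference of 1.68 ± 0.21 (adjusted p = 0.000849), and 1 of its 2 other probes passed, at 1.43. ABCB1, a drug efflux pump, measured 11.71, 12.199 and 11.95 on the day6 arrays and 13.26, 13.49 and 13.21 on the day8 arrays, with no overlap and a difference of 1.37 ± 0.22 (adjusted p = 0.004). SLC23A1, a carrier of vitamin C, rose by 1.91 ± 0.29 (adjusted p = 0.00277), but its other probe differed by -0.16.

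NUCB2, a calcium-binding secreted protein, measured 9.71, 9.13 and 9.34 on the day6 arrays and 11.93, 12.05 and 10.95 on the day8 arrays. Each day8 array was higher, with a difference of 2.25 ± 0.33 (adjusted p = 0.00277). LTBR, a receptor of the tumour necrosis factor family, rose by 1.61 ± 0.24 (adjusted p = 0.00277), and RIT1, a small GTPase, by 1.61 ± 0.22 (adjusted p = 0.0013). Over the 179 genes that rose outside the co-varying set, 72 had other probes: 90 of these 121 probes had the same sign, 11 passed and 0 passed the opposite way. For the 88 that fell, 56 of 64 other probes of 32 genes had the same sign and 9 passed. The other probes had a median difference of 0.25 for the rises and -0.44 for the falls. The probes that stood for the same genes, which were picked for passing, had medians of 1.24 and -1.07. Over all genes outside the co-varying set and its opposite, 59 of 5615 other probes passed.

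The group day7 gives an intermediate day of formation. In day7 against day6, which uses the same day6 arrays, 99 features passed (0.288%), 81 higher and 18 lower (0.0524%). PLAU had reached 14.08 in day7, a difference of 2.36 from day6 (adjusted p = 0.00172). NANOG stood at 12.43 in day7 and 12.10 in day8, and HSD3B1 at 11.56 and 11.18.

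ANKRD1 was at 8.60 in day7, not past the threshold against day6 (adjusted p = 0.519), and 9.95 in day8. In day8 against day7 itself 6 features passed (0.0175%), 5 higher and 1 lower (0.00291%). That count was 335 without day7 replicate 1, one of the arrays set apart by the first component, and 0 without day8 replicate 1, without day8 replicate 3, without day7 replicate 2 or without day7 replicate 3, beside 2747, 3290, 2518 and 2810 features at an unadjusted p under 0.05.

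The comparison with day6+2 asked how late embryos differ from early ones of the same age. Of 34336 features 196 passed (0.571%), 130 higher in day8 and 66 lower, of which 89 were in the co-varying set or its opposite. The count was 51 when the features of the first component were left out and 1 to 11 without any 1 of the 6 arrays, so few calls held in any such fit. At an unadjusted p under 0.05 (limma) there were 3026 to 3616 features without 1 array and 3603 with all of them. Both day8 and day6+2 are set against the same day6 arrays below.

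Of the 262 features that rose outside the co-varying set, 3 were higher and 2 lower in day8 than in day6+2, together 1.91%, beside 0.316% of all features outside the set. Of the 166 that fell outside it, 2 were higher and 13 lower in day8 than in day6+2, together 9.04%. Both sets were picked through the same day8 arrays that are compared here. Shares above 0.316%, and the excess of lower ones among those that fell, therefore follow in part from that choice. PLAU measured 13.99, 14.71 and 13.96 on the day6+2 arrays, close to day8, with a difference of 0.37 (adjusted p = 0.773).

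IFNT measured 15.70, 15.05 and 15.13 in day6+2. It was lower in day8 by a mean of 1.23 without passing (adjusted p = 0.216). HMOX1 had a mean of 12.03 in day6+2 and 10.33 in day8 (adjusted p = 0.057). PAG11 was lower in day8 than in day6+2, by -2.45 (adjusted p = 0.0345).

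Genes outside the co-varying set that passed against both groups numbered 7. TRIM63 and GK fell from day6 but stayed higher than in day6+2, by 1.78 (adjusted p = 0.0384) and 1.10 (adjusted p = 0.0217). CHPT1, which makes phosphatidylcholine, rose from 8.35 in day6 to 10.05 in day8, below its mean of 11.51 in day6+2 (adjusted p = 0.0266). TMEM63C, KRT85, HOXB2 and ARPP21 were lower in day8 than in either group, and all of them have r between -0.8 and -0.5, at -0.68, -0.68, -0.78 and -0.79. They thus move with the component that sets the day8 arrays apart, whose part in these differences was not tested. SPIC and the epiblast gene TDGF1, which did not pass against day6, passed here: SPIC was higher in day8 by 1.38 (adjusted p = 0.0217), and TDGF1 differed by -2.19 (adjusted p = 0.0413).

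Of the 71 named genes that passed, 5 did not pass with the deposited values, namely ARSI, DHODH, IGJ, MEOX2 and ROBO2. With the slide as a random block 8 did not, namely ARID3A, ARSI, FTH1, IGJ, MRAS, ROBO2, STIP1 and UQCRQ. With arrays centred on the median 13 did not, namely ARSI, COX8A, F11R, FTH1, HIST1H2BN, KIT, MRAS, NDUFA11, ORC1L, PDGFB, ROBO2, STIP1 and UQCRQ. With the probes of a gene averaged 28 did not, namely AGPAT9, ANXA4, ARID3A, ARSI, DHODH, DSC2, EDEM1, ENO1, F11R, FTH1, GCSH, H2AFY, HAO2, HEBP2, HSP90B1, IGJ, KIT, MAP1LC3A, MEOX2, MRAS, NDUFA11, PMVK, PTGS2, ROBO2, STIP1, TFAP2A, TMEM39B and ZCRB1. In the fits without 1 array F11R, FTH1, KIT, MEOX2 and UQCRQ passed in 0 of 6, and ARID3A, ARSI, COX8A, DHODH, DSC2, EIF2AK2, H2AFY, IGJ, MRAS, PDGFB, PFKFB3, ROBO2, STIP1 and TKDP1 in 1 of 6. Of these genes HAO2, MRAS, TMEM39B and ZCRB1 follow the first component, with r = 0.92, -0.85, -0.86 and -0.88.

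Markers of other cells that the samples could hold were read in the same way. The summed intensity of 13 cumulus and granulosa markers was 4137 to 6188 in day6 and 6558 to 10605 in day8, with 1 marker above the negative controls on no array of day6 and 1 on none of day8. Without PTGS2, which the trophoblast also expresses, the 12 others summed to 2855 to 3303 and 2890 to 3269. For 17 kidney and fibroblast markers the sums were 18005 to 25110 and 17748 to 45557, with ACTA2, the smooth muscle actin, as the brightest at a difference of 0.74 (adjusted p = 0.42). Above the controls on all 6 arrays were 8 of the 13 cumulus and granulosa markers, 8 of the 17 kidney and fibroblast markers and 15 of the 28 oocyte markers, and 0, 0 and 0 were above them on none. The 28 oocyte markers summed to 29439 to 32476 in day6 and 25302 to 27923 in day8, without overlap, and 0 passed. That sum was mostly set by the brightest of them, KPNA2, PTTG1 and RNF114, with differences of -0.22, -0.63 and -0.24. Of the 28, 13 had a positive difference, and the median was -0.04. The part of such cells in the differences above was not tested.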

How the data were processed

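The scans, at 532 nm per the file headers, gave the median foreground and median local background intensity of every spot, as deposited and not scaled. The authors' deposited value table was in log2 units; set against the scans it closely matched background-subtracted log2 intensity, quantile normalised over the 18 arrays, with column medians of 7.76 to 7.77 and empty cells at spots set aside. Per the submitters' processing notes, R 3.2.4 and limma 3.28.5 were used for 9 of the 18 samples, these 6 among them.

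Here the scans were corrected with normexp (offset 50) and quantile normalised in limma 3.58.1 under R 4.3.3. A probe was kept if above the 95th percentile of 153 negative control spots on 3 or more arrays, which left 40080 of 43794 probes (91.5%). Of the probes, 21790 had 1 gene symbol, 0 several and 22004 none; symbols are those of the array, some of them older names. The brightest probe stood for a gene, which left 14568 genes and 19768 unnamed probes. In the scans 111 spots were at the scanner's limit. A linear model of 6 group means over 18 arrays with moderated variances and Benjamini-Hochberg adjustment over 34336 features gave the tests. On simulated data in this comparison 54% and 52% of 50 features moved by 1 up and down were recovered, 98% and 98% of those moved by 2, with 9 false calls. The simulated noise was independent between features and arrays. It held no first component and no slide effect, so these rates need not hold for the real arrays.

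The named genes were the 10 largest rises and 10 largest falls that passed without overlap outside the co-varying set, up to 5 each way within it, the members of lowest p (4 at most) in any list where a member passed, and fixed markers, 150 in all, of which 71 passed. The members and lists were chosen with earlier results of these data known. Genes outside that rule are said to be chosen after their values were seen, and so were the 20 that passed in each fit without 1 array and the 7 that passed against both day6 and day6+2. Slides are known from the names of the scans alone. Folds of genes below the negative controls throughout a group are bounds. Alternatives covered scaling, filter, probes, slide, replicate number, variance model and arrays. No sequences or positions were used.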

Additional observations from a re-analysis of the deposited data

How the results depend on the processing

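No named gene that passed changed sign under any alternative. In day8 against day6 the 509 features became 1 with the slide as a fixed block, 911 with the replicate block, 1020 with only the 6 arrays compared, 1015 without day6+1 replicate 1 and day7 replicate 1, 270 without features whose correlation with the first component is over 0.5 in size (an alternative chosen after seeing the data), and 42 to 707 without 1 array; the other alternatives gave 364 to 583. In day8 against day6+2 the 196 became 418 with background subtraction and the 75th percentile, 128 centred, 124 with the deposited table, 59 with probes averaged per gene, 111 and 1 with the slide as a random and a fixed block, 463 with the replicate block, 667 without the 2 arrays set apart, 51 and 67 without the features of the first component and those set apart on 2 arrays, 2 without those over 0.5, and 1 to 11 without 1 array. In day7 against day6 the 99 became 4 with the fixed slide block, 187 with the replicate block, 62 without the 2 arrays and 10 to 154 without 1 array (10 without day6 replicate 2). In day8 against day7 the 6 became 14 with the 75th percentile, 0 centred (2844 at an unadjusted p under 0.05), 159 with the fixed slide block, 548 without the 2 arrays and 0 to 335 without 1 array. Of the named genes 71 passed; 43 did with the mean of probes, 1 with the fixed slide block, 40 with another variance model, 47 without features over 0.5 and 5 to 64 without 1 array. Of the list genes 47 passed; 1 did with the fixed slide block, 71 with the replicate block, 74 without the 2 arrays and 3 to 72 without 1 array. The cause of these changes was not tested. Deviations of day8 and day6 arrays of the same number correlated by 0.06, 0.07 and 0.14, and each day8 array correlated best with the day6 array of its own number. The main fit does not pair the numbers, and these correlations cannot settle whether the samples were paired. In both groups replicates 1 and 2 shared a slide and replicate 3 was on another, so replicate number and slide are partly tied. Dim probes and the number of arrays limit what could be seen. In the simulation, whose noise was independent between features and arrays, 54% of rises and 52% of falls of 1 log2 unit were recovered.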
